A study of Mus musculus with 26 samples.

Results

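Kinesins, cytoplasmic dynein and dynactin are the motors that carry cargo along microtubules. Their genes were taken from the 3 deposited tables by symbol, as every gene whose name starts with Kif, Klc, Dync, Dynl or Dctn (the first 2 followed by a digit). This gave 40 genes of the 9574 symbols listed in any table. The GS LRRK2 TG and the GS/DA LRRK2 TG tables each listed 38 of them among 8576 transcripts, and the LRRK2 KO table listed 40 among 9561, with *Kif1c* and *Kif19a* as the additions. They lay on 18 chromosomes, 6 of them on chromosome 17.

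The study asked how LRRK2, a kinase mutated in Parkinson's disease, alters translation in the mouse striatum, by ribosome profiling (footprinting) and RNA-Seq of the same tissue. GS LRRK2 TG mice carried a G2019S LRRK2 transgene, the kinase-activating Parkinson's disease substitution (2 footprinting and 2 RNA-Seq samples). GS/DA LRRK2 TG mice carried G2019S/D1994A LRRK2, in which the kinase is dead (2 and 2 samples), and the non-TG control of both had 3 and 3, of which the GS/DA LRRK2 TG table's control means resolved into 2 and 2 libraries. LRRK2 KO mice had 3 footprinting and 2 RNA-Seq samples, as had their WT controls. All were labelled C57BL/6 and 3 months old. Each transgene was a single line under a tetracycline-off promoter driven by CaMKII-tTA, which is active in forebrain neurons, and each sample pooled the caudate putamen of several mice of mixed sex. Both transgenic tables use the non-TG control, so their comparisons are not independent, and each table was normalized separately.

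Kinesins mostly walk toward the plus ends of microtubules and so carry vesicles, mitochondria and mRNA out along the axon. Cytoplasmic dynein walks the other way with its cofactor dynactin, and returns endosomes and signals to the cell body. Neurons depend on both because of the length of their axons, and mutations in several of these genes, such as *Kif5a*, *Kif1a*, *Dync1h1* and *Dctn1*, cause nerve disease in people.

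The tables hold 1 normalized mean per group and assay. In 10 of the 12 columns of means the value of a transcript could be split into the whole reads of 2 libraries, called library 1 and library 2, in no order known from the labels. Footprinting reads so recovered came to 7237968 and 8203091 in the GS LRRK2 TG libraries, 7129571 and 16891088 in those of GS/DA LRRK2 TG, and 8377516 and 13734866 in the non-TG control that stands beside the latter. The smaller LRRK2 KO table gave 2863332 and 6002138 footprinting reads for the KO and 3107972 and 5289893 for WT. RNA-Seq reads were 8696465 and 14546606 in GS LRRK2 TG, 11089318 and 13335147 in GS/DA LRRK2 TG and 11014187 and 11463156 in their control, with 4518225 and 10771742 in the KO and 3131554 and 7478198 in WT. The control columns listed beside GS LRRK2 TG could not be split, so the values of that comparison have no spread on the control side.

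*Lrrk2* itself was read first, as a check on the genotypes. Its footprints came to 4766 and 7267 normalized reads in GS/DA LRRK2 TG, against 1224 and 1445 in non-TG controls. In the GS LRRK2 TG libraries they were 7052 and 3320, above the control mean of 2524, which was 1335 in the GS/DA table for a control of the same name. Over all transcripts the median control footprints per kilobase of coding sequence went the other way, 377 in the GS LRRK2 TG table and 472 in the GS/DA table. The control mean of 2524 could not be split, so the check does not cover its libraries, and the reason for the gap was not tested. In LRRK2 KO the *Lrrk2* footprints were 150 and 102, below the 690.1 and 400.3 of WT. The *Lrrk2* RNA-Seq mean was below control in both transgenics, 1882 against 2105 in GS LRRK2 TG (-0.16) and 2721 against 2897 in GS/DA LRRK2 TG (-0.09). These means join libraries far apart, with 214 and 3549.6 in GS LRRK2 TG, and 5038 and 404 against 560.2 and 5233 in the GS/DA table. In the KO table RNA-Seq gave 270.0 and 423 against 733 and 1278 in WT.

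That spread between RNA-Seq libraries reached the motors as well. The scaled median absolute deviation of the log2 ratio of library 1 to library 2 over the motor genes was 1.11 in GS/DA LRRK2 TG RNA-Seq and 1.02 in the non-TG control RNA-Seq, with GS LRRK2 TG between them. For footprints it was 0.143 in GS/DA LRRK2 TG, 0.153 in the non-TG control and 0.180 in GS LRRK2 TG. In the KO table it ran from 0.360 to 0.492 over both assays. Across motor genes the RNA-Seq ratio went with the GC content of the coding sequence, with a Spearman rho of 0.63 in GS LRRK2 TG, -0.63 in GS/DA LRRK2 TG and 0.62 in the non-TG control. Over all transcripts with a mean above 300 it was 0.79, -0.80 and 0.78, and genes are not independent replicates. The footprinting ratio went with GC too, with a rho over the motors of -0.50, 0.61 and 0.53 for the same groups. The rho of GC with the footprinting change and with the TE difference of the motors was 0.47 and 0.51 in GS/DA LRRK2 TG (0.15 and 0.15 over all transcripts), -0.41 and -0.47 in GS LRRK2 TG (-0.38 and -0.46) and -0.35 and -0.43 in LRRK2 KO (-0.30 and -0.29). *Kif5b* and *Kif2a* stood at the low end of the motors, with 43.5% and 43.3% GC. In the GS/DA and KO tables each control library was matched to 1 genotype library by the likeness of the difference between libraries over all transcripts (rho 0.74 and 0.98 for footprints and RNA-Seq, and 0.76 and 0.69 in the KO table). The match was read from the values and not from the labels, and changes within matched libraries are given for some of the motors.

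The motors were abundant in the control striatum. Per kilobase of coding sequence, their median control footprinting level was 988, 1209 and 431 in the GS LRRK2 TG, the GS/DA and the KO tables, against 377, 472 and 110.3 over all transcripts. Their median RNA-Seq level per kilobase was higher too, 857, 975 and 541 against 444, 484 and 188, and their median control TE was -0.13, -0.02 and -0.47 against -0.17, 0.04 and -0.64. In the non-TG control of the GS/DA LRRK2 TG table the dynein light chains *Dynll1* and *Dynll2*, small dimers that dock many partners, had the highest footprints per kilobase, 26508 and 25574. Among the kinesins the light chain *Klc1*, which binds cargo to kinesin-1, had 4826, *Kif5c* 2122 and *Kif1a*, the carrier of synaptic vesicle precursors, 1928. The lowest were *Kif26b*, an atypical kinesin, with 22.3, and *Kif13a* and *Kif16b*, endosome carriers, with 40.1 and 40.4.

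TE, the log2 ratio of the footprinting mean to the RNA-Seq mean, differed widely from one motor to the next. In the non-TG control of the GS/DA LRRK2 TG table it ran from -2.36 for *Kif5a* to 1.99 for *Dynlt3*, around a median of -0.02 (0.04 over all transcripts). The 3 kinesin-1 heavy chains, which do the same work of carrying cargo outward, lay far apart, with *Kif5a* at -2.36, *Kif5c* at -0.16 and *Kif5b* at 1.73. These values move with the control RNA-Seq library used. Without library 1 *Kif5c* had -0.77, *Kif5b* 1.10, *Kif2a* 1.45 and *Dynlt3* 1.41, and without library 2 they had 0.95, 2.90, 2.53 and 3.00, while the *Kif5a* RNA-Seq mean could not be split. In WT of the LRRK2 KO table, with other libraries, *Kif5a* was again low at -1.92, while *Kif5b* stood at -0.26 (-0.55 and 0.10 without RNA-Seq library 1 or 2) and *Kif5c* at -0.51 (-0.68 and -0.32). *Kif2a*, at 1.89 in the GS/DA table, had 0.21 in WT of the KO table, the highest of the motors there, and *Dynlt3* had 0.05. The median TE of WT was lower, at -0.47 over the motors and -0.64 over all transcripts. Among all transcripts *Kif2a*, *Dynlt3* and *Kif5b* stood at TE percentiles 94.6, 89.5 and 74.4 there, against 99.2, 99.4 and 98.8 in the GS/DA table. Among the motors, the lowest TE in WT of the KO table was that of *Kif1c*, a kinesin-3 with few reads, at -3.93 (the lowest over all transcripts was -5.41). The deposited folding energy of the 5′UTR had a median of -90.85 kcal/mol over the motors, close to -91.15 over all transcripts of the transgenic tables, and ran from -850.6 for *Kif17* to -11.9 for *Dync1li1*.

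The motors as a group were, in GS LRRK2 TG, near their control level. The median footprinting change of the 38 was 0.03 (log2), against 0.00 over all transcripts, and the median RNA-Seq change was 0.02 against -0.02. Footprints were above control for 27 of 38 (71.1%, against 51.2% of all transcripts). Past a log2 change of 0.25, 4 motors were higher in footprints (3.32% of all transcripts), all of them copies of *Dynlt1*, a dynein light chain, and 0 lower (3.21%). In RNA-Seq 4 were higher (4.02%), again the *Dynlt1* copies, and 4 lower (15% of all transcripts). The coding sequences of the *Dynlt1* copies differ at no more than 1 base, so each count of 4 higher is close to a count of 1.

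Those 4 motors with the lower RNA-Seq mean were the ones called TE up. A TE difference, genotype minus control, is called here at a z of at least 1.5 or at most -1.5 over all transcripts of the table. TE up took in 4 of 38 motors (8.01% of all transcripts) and TE down 0 of 38 (3.91%), around a median TE difference of 0.02, the same as over all transcripts. With single libraries left out, values in brackets are those of all transcripts in the same setting. Without GS RNA-Seq library 1 the count of TE up was 1 (8.45%) and the median was -0.13 (0.04), and without GS footprinting library 1 the count was 1 (4.68%). Without GS RNA-Seq library 2 the median was 0.14 (0.02). The RNA-Seq counts were 20 higher (33.2%) and 7 lower (39.6%) without GS RNA-Seq library 1, and 11 (37.6%) and 15 (41.3%) without library 2. The footprinting count of 4 higher was 0 (7%) without GS footprinting library 1 and 8 (12.8%) without library 2, with 1 lower (15%). The median footprinting change was 0.074 (0.00) without library 2, and the median RNA-Seq change 0.28 (-0.04) without GS RNA-Seq library 1 and -0.10 (-0.01) without library 2.

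Most motors had a mean above control in GS/DA LRRK2 TG. The median footprinting change was 0.08, against -0.01 over all transcripts, and 29 of 38 motors were above 0 (76.3%, against 47.5%). The median RNA-Seq change was 0.16 against 0.06, with 29 of 38 above 0 (76.3%, against 64.7%). Past the fold, 7 motors were higher in footprints (3.67% of all transcripts) and 0 lower (3.35%), while in RNA-Seq 11 were higher (14.2%) and 0 lower (2.59%). With the *Dynlt1* copies counted once, a count added after the values were seen, 4 of 35 were higher in footprints and 8 of 35 in RNA-Seq. TE down took in 5 of 38 (7.36%) and TE up 0 (3.65%), with a median TE difference of -0.02 against -0.05.

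These GS/DA LRRK2 TG counts moved with single libraries, those of RNA-Seq the most. The median TE difference was 0.13 (-0.04) without non-TG RNA-Seq library 1 and -0.12 (-0.01) without library 2. It was 0.05 (0.00) without GS/DA RNA-Seq library 1 and -0.14 (0.00) without library 2. It was -0.12 (-0.05) without non-TG footprinting library 1 and 0.03 (-0.06) without library 2. The median footprinting change was 0.13 (0.00) without non-TG footprinting library 2. Without GS/DA RNA-Seq library 1 the median RNA-Seq change was -0.08 (-0.01), with 16 motors of 36 lower past the fold (40.3%), TE down was 0 (0.2%) and TE up 2 (8.18%). Without GS/DA RNA-Seq library 2, 5 motors were lower in RNA-Seq (39.1%) and TE down was 1 (4.08%). Without non-TG RNA-Seq library 1, 11 were lower (30.9%) and TE down was 1 (8.42%), and without library 2 the RNA-Seq count was 19 higher (38.7%) and 4 lower (32.6%) with a TE down count of 2 (8.96%). The footprinting count was 11 higher (9.08%) without non-TG footprinting library 2, and 1 motor was lower without non-TG library 1 (7.85%) or GS/DA footprinting library 2 (9.31%). TE down was 1 without non-TG footprinting library 2 (2.81%) or GS/DA footprinting library 1 (4.85%) and 2 without GS/DA footprinting library 2 (6.2%), and TE up was 1 without non-TG footprinting library 1 (3.55%) or GS/DA footprinting library 2 (1.91%).

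In LRRK2 KO the motors spread to both sides of WT. The median footprinting change of the 40 was 0.01 (0.02 over all transcripts) and the median RNA-Seq change -0.03 (0.01). Past the fold, 1 was higher in footprints (8.39% of all transcripts) and 3 lower (7.01%), and 2 were higher in RNA-Seq (12%) and 6 lower (13.4%), or 4 of 37 with the *Dynlt1* copies counted once. TE up took in 2 (6.23%) and TE down 2 (6.02%), near the share of all transcripts. The members of these small counts are *Dynlt3* higher and *Kif16b*, *Kif21b* and *Kif19a* lower in footprints, *Kif5a* and *Kif19a* higher in RNA-Seq, and *Dync1i1*, *Dync1li1*, *Dynll1*, *Dynlt1a*, *Dynlt1c* and *Dynlt1e* lower in RNA-Seq.

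The LRRK2 KO counts moved with most of the libraries, and the median RNA-Seq change was -0.14 (-0.02) without KO RNA-Seq library 2. The median footprinting change was 0.21 (0.02) without WT footprinting library 1 and -0.15 (0.00) without WT library 2. It was -0.16 (0.00) without KO footprinting library 1 and 0.10 (-0.01) without KO library 2. Higher footprints counted 17 (26.4%) without WT footprinting library 1, 3 (23.4%) without KO library 1 and 9 (18.3%) without KO library 2, and lower ones 1 (24.5%) without WT library 1, 11 (17.2%) without WT library 2 and 9 (15.1%) without KO library 1. Higher RNA-Seq counted 1 (18.2%) without WT RNA-Seq library 1, 12 (31.8%) without WT library 2 and 7 (22.9%) without KO library 1, and lower RNA-Seq 10 without WT library 2 (28.1%) or KO library 2 (25.1%). TE up was 4 (5.61%) without WT footprinting library 1, 0 without WT footprinting library 2 (8.81%), WT RNA-Seq library 1 (4.88%) or KO footprinting libraries 1 (7.73%) and 2 (2.47%), and 1 without WT RNA-Seq library 2 (5.65%) or KO RNA-Seq libraries 1 (6.48%) and 2 (6.01%). TE down was 4 (3.47%) without KO footprinting library 1, 1 (4.42%) without KO RNA-Seq library 1, and 0 without WT footprinting library 1 (6.77%), WT RNA-Seq library 1 (6.55%), KO footprinting library 2 (8.67%) or KO RNA-Seq library 2 (4.56%).

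**Figure D1:**
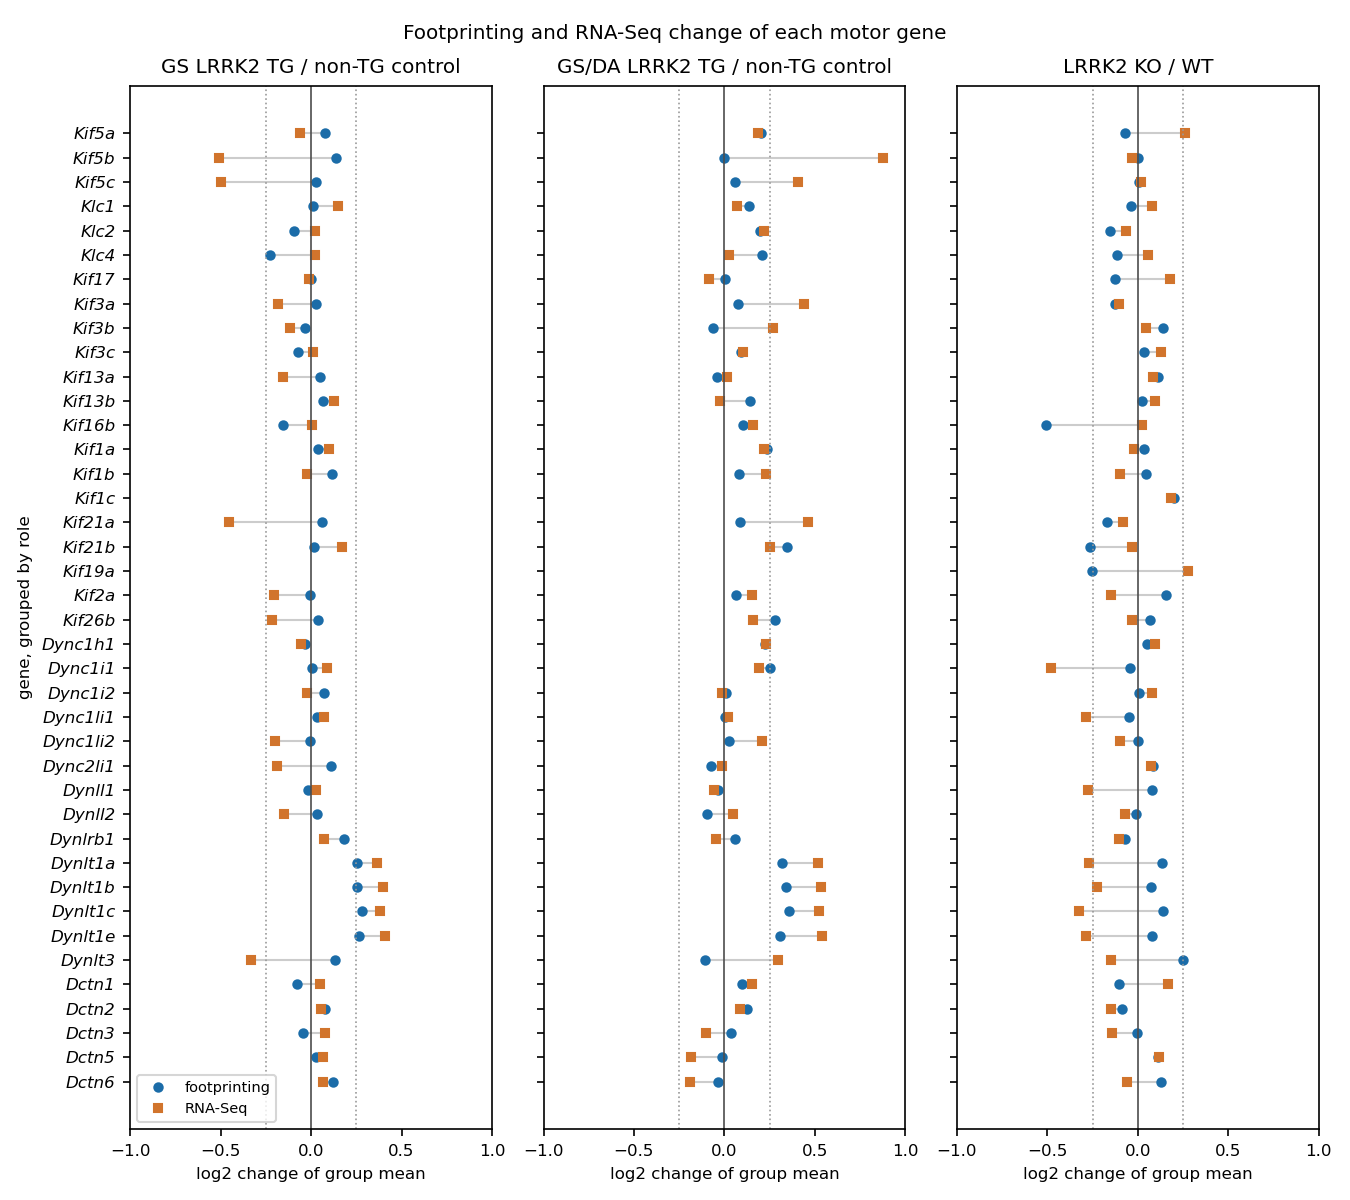
Log2 change of the group mean in footprinting (circles) and RNA-Seq (squares) of each motor gene, by role, in the 3 comparisons, with dotted lines at 0.25 and -0.25. The widest gap between the 2 assays is that of *Kif5b* in GS/DA LRRK2 TG, where the RNA-Seq change was 0.88.

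Kinesin-1 pairs heavy chains that walk (*Kif5a*, *Kif5b*, *Kif5c*) with light chains that hold cargo. *Kif5b* is made in most cells, while *Kif5a* and *Kif5c* are mainly neuronal. *Kif5b* showed the largest TE difference of the motors in both transgenic tables, 0.65 in GS LRRK2 TG and -0.88 in GS/DA LRRK2 TG (z 2.76 and -4.64), and 0.03 in LRRK2 KO. Its footprints hardly differed: 2774 and 3082 normalized reads in the non-TG control libraries and 2755 and 3085 in GS/DA LRRK2 TG. Its RNA-Seq reads were 393 and 1368 in the control and 2965 and 271 in GS/DA LRRK2 TG, so that the GS/DA libraries lay on either side of both control libraries.

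In GS LRRK2 TG *Kif5b* had 2618 and 2357 footprints against a control mean of 2259, a change of 0.14 beside one of -0.51 in RNA-Seq. Its RNA-Seq reads were 165 and 1188 against a control mean of 964, so the group mean rested on 1 low library. Without GS RNA-Seq library 1 the TE difference was -0.16. The GS/DA LRRK2 TG value was 1.70 without GS/DA RNA-Seq library 1 and -0.25, no longer called, without non-TG RNA-Seq library 1. It was -2.04 without non-TG RNA-Seq library 2 and -1.76 without GS/DA RNA-Seq library 2, and in GS LRRK2 TG 2.68 without RNA-Seq library 2. Within matched libraries the RNA-Seq change of *Kif5b* was -0.54 in one match and 1.12 in the other.

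*Kif5c* followed *Kif5b*. Its footprints were 5886 and 6402 in the non-TG control and 6509 and 6282 in GS/DA LRRK2 TG, which overlap. RNA-Seq gave 3185 and 10507 in the control and 15593 and 2528 in GS/DA LRRK2 TG, again on either side of both controls. The TE difference was -0.35 (TE down) there and 0.53 (TE up) in GS LRRK2 TG, where RNA-Seq reads were 1266 and 7391 against a control mean of 6115. It was -0.24 without GS RNA-Seq library 1 and 2.30 without library 2, and no longer called without GS footprinting library 1 (0.49). Its GS/DA LRRK2 TG value was 0.27 without non-TG RNA-Seq library 1, 1.495 without GS/DA RNA-Seq library 1, and no longer called without any 1 of the other 6 libraries (-1.45 to -0.28). Within matched libraries its RNA-Seq change was -0.33 and 0.57, and the call was lost with footprints of matched libraries 1 (-0.26).

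*Kif5a*, the heavy chain mutated in spastic paraplegia, had no TE call. Its GS/DA LRRK2 TG footprints were 4869 and 5452 against 4207 and 4751 in the control, so that both GS/DA libraries lay above both controls. The footprinting change was 0.20 and the RNA-Seq change 0.18. The GS LRRK2 TG footprints were 4432 and 3301 against a control mean of 3669. In LRRK2 KO its RNA-Seq mean was higher, 9202 and 8759 against 5264 and 9719 in WT, with overlapping libraries and changes of 0.81 and -0.15 within matched ones. The TE difference there was -0.33, the third lowest of the motors.

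**Figure D2:**
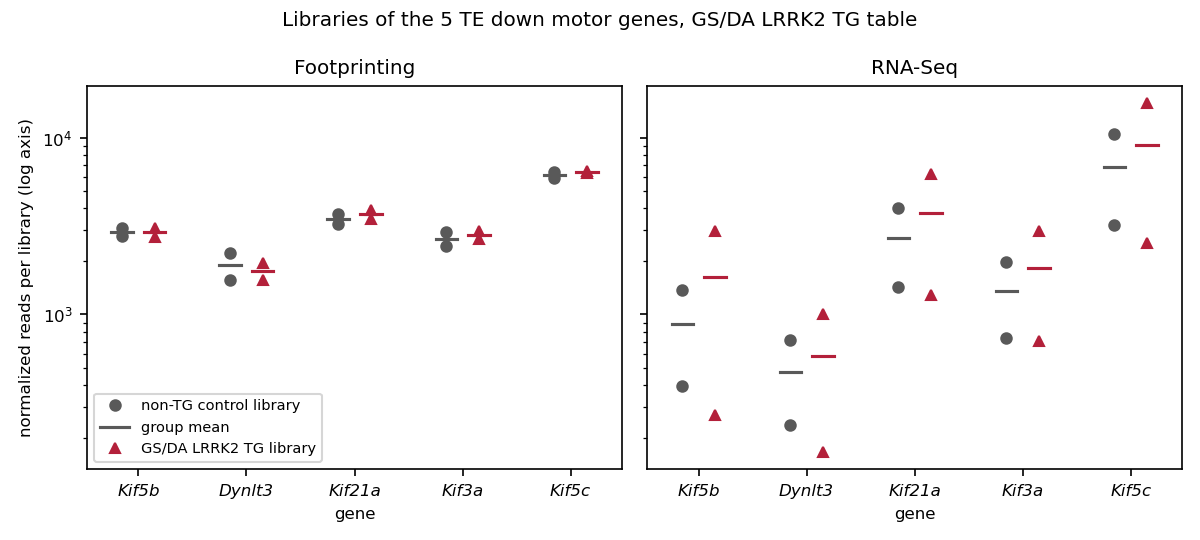
Normalized reads of each library (log axis) for the 5 motor genes called TE down in GS/DA LRRK2 TG, with footprinting on the left and RNA-Seq on the right; circles are non-TG control libraries, triangles GS/DA LRRK2 TG libraries and lines group means. RNA-Seq libraries of 1 group lie far apart, as for *Kif5b* with 2965 and 271, while the footprints of each gene overlap.

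Of the kinesin light chains, *Klc1*, *Klc2* and *Klc4* were listed and *Klc3* was not. All 3 were above control in GS/DA LRRK2 TG footprints, by 0.13, 0.19 and 0.21. *Klc2* had 3541 and 3462 there against 2818 and 3304 in the control, with no overlap, while *Klc1* had 10690 and 9243 against 9359 and 8815 and *Klc4* had 406 and 322 against 328 and 303. For GS LRRK2 TG, *Klc4* was the lowest motor in footprinting change (-0.23) and in TE difference (-0.25), with 219.6 and 241 footprints against a control mean of 269.5. *Klc2* had a footprinting change of -0.10 there and -0.15 in LRRK2 KO. In LRRK2 KO its footprints, 1200.2 and 1091, lay below both WT libraries, 1212 and 1334. *Klc4* had the highest TE difference of GS/DA LRRK2 TG, 0.18.

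Kinesin-2 drives transport in cilia and axons. *Kif3a* pairs with *Kif3b* or, in neurons, with *Kif3c*, while *Kif17* works as a dimer of its own in dendrites. *Kif3a* was TE down in GS/DA LRRK2 TG (-0.37), with 2453 and 2907 footprints in the control and 2660 and 2977 in GS/DA LRRK2 TG, and 736 and 1980 RNA-Seq reads against 2969 and 710.0. The footprints overlap, and the GS/DA RNA-Seq libraries lay on either side of both controls. The TE difference was 0.18 without non-TG RNA-Seq library 1 and 1.01 without GS/DA RNA-Seq library 1. It was no longer called without any 1 of 5 other libraries, at -1.25 and -1.06 without the RNA-Seq libraries 2 of the control and of GS/DA, and -0.24, -0.29 and -0.45 without non-TG footprinting library 2 and GS/DA footprinting libraries 1 and 2. The RNA-Seq change of *Kif3a* within matched libraries was -0.05 and 0.58, and with footprints of matched libraries 1 the TE call was lost (-0.32).

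The other kinesin-2 genes had no call. *Kif3b* had a TE difference of -0.33 in GS/DA LRRK2 TG (z -1.48), with footprints of 839 and 949 against 996 and 873. *Kif3c* footprints were 2611 and 2521 there against 2490.1 and 2326, higher in both libraries by a small step (0.09). *Kif17* footprints were 821 and 726 against 851 and 691. In LRRK2 KO the *Kif17* RNA-Seq reads, 679 and 680.4, lay above both WT libraries, 563 and 637. The TE differences of *Kif3a*, *Kif3b*, *Kif3c* and *Kif17* in LRRK2 KO were -0.02, 0.10, -0.09 and -0.31, and in GS LRRK2 TG 0.21, 0.09, -0.08 and 0.01.

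Kinesin-3 holds the fast carriers of synaptic vesicle precursors, mitochondria and endosomes. *Kif1a* was higher in GS/DA LRRK2 TG footprints, with 11300 and 12032 against 9614 and 10230 in the control. The change was 0.23 within each of the matched libraries, and RNA-Seq gave 0.21 and 0.23 within matched libraries. In GS LRRK2 TG its footprints were 8769 and 8600 against a control mean of 8452, and in LRRK2 KO 6012 and 4097 against 5881 and 3994. *Kif1b*, which carries mitochondria and synaptic vesicle precursors, had 8374 and 9127 in GS/DA LRRK2 TG against 7985 and 8591, which overlap.

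The other kinesin-3 genes had few reads. *Kif13b* had 359.7 and 396 footprints in GS/DA LRRK2 TG against 356 and 329.6, and its TE difference of 0.17 was among the 3 highest. *Kif13a* had 193 and 227 against 193 and 239. *Kif16b*, a carrier of early endosomes, had a footprinting change of -0.15 and a TE difference of -0.16 in GS LRRK2 TG, both second lowest, and in LRRK2 KO it was the lowest motor in footprints, at -0.51. Its KO footprints were 37.8 and 34.9 against 57.3 and 45.9 in WT, with no overlap, but these stand for 27 and 51 reads in the KO and 43 and 59 in WT. *Kif1c*, listed in the KO table alone, had 43.4 and 32.2 against 30.6 and 35.0, with a footprinting change of 0.20 and an RNA-Seq change of 0.18.

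*Kif16b* was TE down in LRRK2 KO (-0.53). The call was lost without WT footprinting library 1 (-0.36), WT RNA-Seq library 1 (-0.15), KO footprinting library 2 (-0.47), KO RNA-Seq library 1 (-0.54) or KO RNA-Seq library 2 (-0.52). Without WT RNA-Seq library 2 it was -1.038. It was not called within matched libraries 2 of either assay (-0.42 and -0.16). *Kif19a*, which shortens microtubules at the tip of cilia, was the other TE down motor (-0.53), with 46.2 and 16.4 footprints against 46.6 and 28.0, a footprinting change of -0.25 and an RNA-Seq change of 0.28. Its groups overlap, and its TE difference was 0.10 without WT RNA-Seq library 1, 0.03 without KO footprinting library 2, 0.40 without KO RNA-Seq library 2 and -0.12 without WT footprinting library 1. It was -0.85 without WT footprinting library 2, -1.67 without WT RNA-Seq library 2, -1.46 without KO footprinting library 1 and -1.09 without KO RNA-Seq library 1, and with footprints of matched libraries 1 it was not called (-0.29).

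Kinesin-4 motors set the growth of microtubules. *Kif21a*, mutated in an inherited disorder of eye movement, lies 623 kb from *Lrrk2* on chromosome 15 and was TE up in GS LRRK2 TG (0.51) and TE down in GS/DA LRRK2 TG (-0.38). Its footprints were 3461 and 3901 in GS/DA LRRK2 TG against 3258 and 3673, and its RNA-Seq reads 6186 and 1296 against 1426 and 3997. It had 839 and 2891 in GS LRRK2 TG RNA-Seq against a control mean of 2554. The groups overlap in footprints, and in RNA-Seq the GS/DA libraries hold both the highest and the lowest value.

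The *Kif21a* TE difference in GS LRRK2 TG was -0.12 without RNA-Seq library 1, and no longer called without RNA-Seq library 2 (1.66) or footprinting library 1 (0.47). The GS/DA LRRK2 TG value was 0.18 without non-TG RNA-Seq library 1 and 1.15 without GS/DA RNA-Seq library 1. It was no longer called without the RNA-Seq libraries 2 of the control (-1.30) or GS/DA (-1.10), non-TG footprinting library 2 (-0.29) or GS/DA footprinting libraries 1 (-0.29) and 2 (-0.47), or with footprints of matched libraries 1 (-0.38, z -1.39). Its RNA-Seq change within matched libraries was -0.14 and 0.63. *Kif21b*, its close relative, had 353 and 325 footprints in GS/DA LRRK2 TG against 272 and 262, with no overlap and a change of 0.35. In LRRK2 KO its change was -0.26, with overlapping libraries of 149.7 and 92.4 against 185 and 105. Its TE difference in GS LRRK2 TG was -0.15.

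*Kif2a*, a kinesin-13 that takes microtubules apart at their ends, had 1428 and 1946 footprints in GS/DA LRRK2 TG against 1405 and 1827. In LRRK2 KO it had 734 and 492 against 678 and 423, a change of 0.16. Its TE differences were 0.20 in GS LRRK2 TG, -0.09 in GS/DA LRRK2 TG and 0.31 in the KO. Of 11 mitotic and other kinesins only *Kif26b* was listed, with 195 and 149 footprints in GS/DA LRRK2 TG against 135 and 147, changes of 0.52 and 0.01 within matched libraries. Of the 5 symbols that mark dividing cells 0 were present in any table.

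Cytoplasmic dynein is built on *Dync1h1*, the heavy chain that walks. In GS/DA LRRK2 TG its footprints were 8623 and 8215 against 7963 and 6478, with no overlap and a change of 0.22, and its RNA-Seq change was 0.23. GS LRRK2 TG footprints were 5339 and 6764 against a control mean of 6197, and in LRRK2 KO 6427 and 3369 against 6382 and 3077. The intermediate chain *Dync1i1*, the neuronal form that links dynein to dynactin, had 2242 and 2581 in GS/DA LRRK2 TG against 1949 and 2099. Its RNA-Seq reads, 1923 and 1793, also lay above both controls, 1527 and 1726.

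In LRRK2 KO *Dync1i1* had the lowest RNA-Seq change of the motors, -0.48, with 708 and 463 against 1102 and 534, and was TE up (0.44). The groups overlap in RNA-Seq, with changes of -0.64 and -0.21 within matched libraries. The TE call was lost in all 4 matched settings, with footprints (0.44 and 0.43) or RNA-Seq (0.59 and 0.16) of 1 match. Without WT RNA-Seq library 1 the TE difference was -0.18, and it was no longer called without WT footprinting library 1 (0.53) or 2 (0.35), KO footprinting library 1 (0.33) or 2 (0.53) or KO RNA-Seq library 2 (0.16). It was 0.87 without WT RNA-Seq library 2 and 0.78 without KO RNA-Seq library 1.

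The other dynein subunits were near control in footprints. *Dync1i2*, the widely made intermediate chain, had 2937 and 3323 in GS/DA LRRK2 TG against 2821 and 3404. The light intermediate chains *Dync1li1* and *Dync1li2*, which hold cargo adaptors, had 2786 and 2890.4 against 2969 and 2701, and 3528 and 3923 against 3441 and 3881. All 3 overlap, with TE differences of 0.02, -0.02 and -0.18 there and 0.09, -0.04 and 0.19 in GS LRRK2 TG. In LRRK2 KO *Dync1li1* RNA-Seq was lower in mean (-0.28), with 633 and 659 against 944 and 629. *Dync1li2* RNA-Seq reads were 1343 and 1351 against 1403 and 1486. *Dync2li1*, a subunit of the dynein of cilia, had a footprinting change of -0.07 in GS/DA LRRK2 TG, the third lowest.

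Among the dynein light chains the *Dynlt1* copies were the highest in both transgenic comparisons. *Dynlt1c* footprints were 950 and 1087 in GS/DA LRRK2 TG against 749 and 843, and RNA-Seq reads 772 and 764 against 555 and 514, with no overlap in either assay. The GS LRRK2 TG libraries held 899 and 851 footprints against a control mean of 721, and 783 and 786 RNA-Seq reads against 602. In both tables RNA-Seq moved more than footprints, by 0.52 against 0.35 in GS/DA LRRK2 TG and 0.38 against 0.28 in GS LRRK2 TG. *Dynlt1a*, *Dynlt1b* and *Dynlt1e* had footprinting changes of 0.32, 0.34 and 0.31 in GS/DA LRRK2 TG and 0.26, 0.25 and 0.27 in GS LRRK2 TG, and RNA-Seq changes of 0.52, 0.53 and 0.54, and 0.36, 0.40 and 0.41.

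In LRRK2 KO the *Dynlt1c* RNA-Seq reads were 291 and 437, below the 467 and 443 of WT (-0.32), and footprints were 284 and 252 against 301 and 185, which overlap. *Dynlt1c* was TE up there (0.46), and *Dynlt1a* had 0.40 without a call. The call was lost without WT footprinting library 2 (0.15), WT RNA-Seq library 1 (0.42) or 2 (0.50), KO footprinting library 1 (0.37) or 2 (0.55) or KO RNA-Seq library 1 (0.20). It was 0.85 without WT footprinting library 1 and 0.78 without KO RNA-Seq library 2. The RNA-Seq change of *Dynlt1c* within matched libraries was -0.68 and -0.02, and the TE call was lost with footprints of matched libraries 1 (0.24) or RNA-Seq of matched libraries 2 (0.16). *Dynlt1e* RNA-Seq was 136 and 188 against 208 and 187.

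Within the coding sequence, short reads cannot tell *Dynlt1a*, *Dynlt1c* and *Dynlt1e* apart, and only reads over 1 base set *Dynlt1b* apart from them. The coding sequences of *Dynlt1a*, *Dynlt1c* and *Dynlt1e* are identical over 342 bases, and *Dynlt1b* differs at 1 base, C21A counted from 1 at the start of the coding sequence of *Dynlt1a*. Of the 313 stretches of 30 bases in each copy, 207 occur more than once in the genome, so the 4 values are not independent. That count is of places in the genome, and the other stretches of *Dynlt1a*, *Dynlt1c* and *Dynlt1e* are shared by their coding sequences too. *Dynlt1f*, which was not listed, has the same coding sequence as *Dynlt1a*. The values listed for the copies differ, but they do not measure the level of each gene by itself. Control footprint means were 796 for *Dynlt1c* and 371 for each other copy beside GS/DA LRRK2 TG, and 721 against 332, 335 and 330 beside GS LRRK2 TG. The first 30 bases of 2 coding sequences (mouse build mm9, GENCODE) are shown because they hold the single base, in capitals, at which the copies differ.
Dynlt1a: atggaagacttccaggcctcCgaggagact
Dynlt1b: atggaagacttccaggcctcAgaggagact

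*Dynlt3*, the relative of *Dynlt1* on the X chromosome, had 1562 and 1953 footprints in GS/DA LRRK2 TG against 1559 and 2225, the lowest footprinting change there (-0.11). It was TE down (-0.40), with RNA-Seq reads of 999.9 and 168 against 237 and 713, and TE up in GS LRRK2 TG (0.47), with 65.8 and 589.6 against a control mean of 413. The GS/DA RNA-Seq libraries lay on either side of both controls. The GS LRRK2 TG value was -0.38 without RNA-Seq library 1, 2.78 without library 2, 0.19 and no longer called without footprinting library 1, and 0.70 without footprinting library 2.

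The *Dynlt3* TE difference in GS/DA LRRK2 TG was 0.18 without non-TG RNA-Seq library 1 and 1.40 without GS/DA RNA-Seq library 1. It was no longer called without the RNA-Seq libraries 2 of the control (-1.41) or GS/DA (-1.18), non-TG footprinting library 2 (-0.12) or GS/DA footprinting library 1 (-0.25), and it was -0.64 without non-TG footprinting library 1. Within matched libraries the RNA-Seq change was -0.50 and 0.49, and the call was lost with footprints of matched libraries 1 (-0.29). In LRRK2 KO *Dynlt3* was the motor with the highest footprinting change, 0.25, and both KO libraries, 435 and 519.7, lay above WT, 416 and 386. *Dynll1* and *Dynll2* had footprints of 6311 and 7482, and 6532 and 7559, in GS/DA LRRK2 TG against 6269 and 7886, and 6685 and 8353, changes of -0.04 and -0.09. *Dynlrb1*, of the roadblock family, had 2795 and 2839 against 2562 and 2840.1, and all 3 overlap.

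Of dynactin, the cofactor that lets dynein travel far, 5 subunits were among the members. *Dctn1*, whose product grips the microtubule, had 6451 and 5639 footprints in GS/DA LRRK2 TG against 5887 and 5412, and RNA-Seq reads of 4980 and 13969 against 12209 and 4840. *Dctn2*, dynamitin, which holds the complex together, had 5233 and 5543 against 4941 and 4937, with no overlap and a change of 0.13. In LRRK2 KO *Dctn2* was the reverse, with 1406 and 1524 below the 1531 and 1578 of WT (-0.09). *Dctn3*, *Dctn5* and *Dctn6* had the 3 lowest RNA-Seq changes of GS/DA LRRK2 TG, -0.10, -0.19 and -0.19, and overlapping footprints. The TE differences of the 5 listed subunits ran from -0.13 to 0.06 in GS LRRK2 TG, from -0.05 to 0.18 in GS/DA LRRK2 TG and from -0.27 to 0.19 in LRRK2 KO, and *Dctn4* was not listed. A further 9 genes were listed, other dynactin subunits, *Kifap3* and kinesin-14 motors. Of these 9, 1 was TE up in GS LRRK2 TG (8.01% of all transcripts), *Capza2* (0.39), and 1 TE down in GS/DA LRRK2 TG (7.36%), again *Capza2* (-0.42). In LRRK2 KO 2 were TE down (6.02%), *Kifc2* (-0.62) and *Kifc3* (-0.47). These calls rest on group means, and single libraries were not left out for them.

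Library by library, motors could be compared with control in GS/DA LRRK2 TG and in LRRK2 KO. Both GS/DA footprinting libraries lay above both controls for 14 of 38 motors (12% of all transcripts) and below for 0 (12.2%). The 14 were *Kif5a*, *Klc2*, *Kif3c*, *Kif1a*, *Kif13b*, *Kif21b*, *Kif26b*, *Dync1h1*, *Dync1i1*, *Dctn2* and the 4 *Dynlt1* copies, or 11 of 35 with the copies counted once. Within matched footprinting libraries 22 of 38 were higher in both (28.3%), or 19 of 35 with the copies counted once, and 4 lower in both (32.2%). In RNA-Seq 5 of 36 lay above both controls (1.79%), namely *Dync1i1* and the 4 *Dynlt1* copies, or 2 of 33 with the copies counted once, and 0 below (1.58%). Within matched RNA-Seq libraries 13 of 36 were higher in both (21.7%), or 10 of 33 with the copies counted once, and 3 lower in both (16.1%).

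The same counts were made in LRRK2 KO. Footprints of both KO libraries lay above both WT libraries for 1 of 40 motors, *Dynlt3* (6.21% of all transcripts), and below for 3, *Klc2*, *Kif16b* and *Dctn2* (6.4%). Within matched libraries 6 of 40 were higher in both (24.2%) and 13 lower in both (19.4%). RNA-Seq lay above for 1, *Kif17* (7.02%), and below for 4, *Dync1li2*, *Dynll2*, *Dynlrb1* and *Dynlt1c* (7.01%), with 5 higher (24.5%) and 10 lower (23.5%) in both matched libraries. The counts within matched libraries were added after the data were seen.

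**Figure D3:**
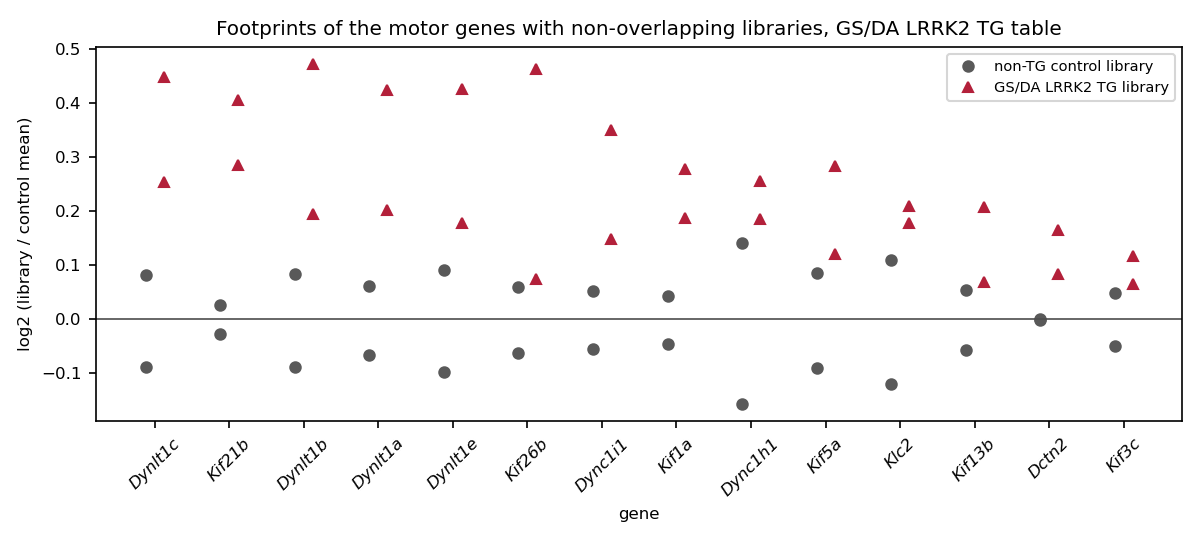
Log2 ratio of each footprinting library to the non-TG control mean for the 14 motor genes whose GS/DA LRRK2 TG libraries (triangles) both lie above both control libraries (circles). *Dynlt1c*, at a change of 0.35 between the means, and *Kif3c*, at 0.09, are near the ends of the range.

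limma on the recovered libraries, with Benjamini-Hochberg adjustment over 8348 transcripts of the GS/DA LRRK2 TG table, called 0 of 36 motors in footprints (0% of all transcripts), RNA-Seq (0%) or TE (0%). *Kif5a* and *Klc1*, whose RNA-Seq means could not be split, were not in the test. At an unadjusted p under 0.05 there were 2 motors in footprints (142 of the 8348 transcripts), 0 in RNA-Seq and 0 in TE. Over the 9551 transcripts of the LRRK2 KO table limma called 0 of 40 motors in footprints (0%), RNA-Seq (0%) and TE (0%), with 0 at an unadjusted p under 0.05 in each (7, 7 and 2 transcripts). These p-values measure the spread between these libraries alone.

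Matched libraries were next taken as a block, a choice made after the data were seen. limma then called 2 of 36 motors in GS/DA LRRK2 TG footprints (1.83% of all transcripts). Both were higher, while over all transcripts 80 were called higher and 73 lower. *Dynlt1c* was higher by 0.35 (limma, Benjamini-Hochberg adjusted p = 0.0294, higher in 2 of 2 libraries) and *Kif1a* by 0.23 (limma, Benjamini-Hochberg adjusted p = 0.0303, higher in 2 of 2). The other 3 *Dynlt1* copies were not called in that limma fit, with Benjamini-Hochberg adjusted p of 0.119, 0.0922 and 0.126 for *Dynlt1a*, *Dynlt1b* and *Dynlt1e*. Without the block *Dynlt1c* and *Kif1a* had a limma adjusted p of 1. The match was chosen from the same values as the one with the most alike library differences, which favours low p-values in the blocked fit. The blocked fit called 0 motors in GS/DA LRRK2 TG RNA-Seq (0.012%) and TE (0%), with 10 motors in footprints (1276 of 8348 transcripts), 4 in RNA-Seq (116) and 0 in TE (22) at an unadjusted p under 0.05. In LRRK2 KO it called 0 in footprints (0.105%), RNA-Seq (0.126%) and TE (0%), with 0 at an unadjusted p under 0.05 in each (255, 414 and 167 transcripts).

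Markers of cell types moved in the same libraries. Of 6 cortical neuron markers 4 were listed in the GS/DA LRRK2 TG table, with a median footprinting change of 1.18 and RNA-Seq change of 1.10. *Slc17a7*, the vesicular glutamate transporter of cortical neurons, had 1577 and 2516 footprints against 673 and 994 in the control, and *Tbr1*, a cortical transcription factor, 768 and 1321 against 289 and 491. Both lay apart from control, as the 14 motors did. The most abundant of the 4, *Nrgn*, had a footprinting change of -0.22, and the summed footprinting mean of the 4 was 19834 against 20560. In GS LRRK2 TG the medians of these markers were -0.23 and -0.38 (sums 16150 against 16133 in footprints), and in LRRK2 KO, with 6 of 6 listed, 0.00 and -0.21 (library sums 8137 and 9339 against 7897 and 10620).

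Spiny neurons, the main neurons of the striatum, were marked by 11 listed genes of 13 symbols. Their median footprinting change was -0.16 in GS LRRK2 TG, -0.22 in GS/DA LRRK2 TG and 0.12 in LRRK2 KO, with sums of 102346 against 111246, 120261 against 149017 and 33374 against 32216. The most abundant in RNA-Seq, *Ppp1r1b*, changed by -0.09, -0.30 and 0.07. *Ttr*, the only choroid plexus marker listed of 5, had 17056 and 1193 footprints in the control libraries and 1137 and 5162 in GS/DA LRRK2 TG, a change of -1.53 (RNA-Seq -0.88). In GS LRRK2 TG its footprints were 1037 and 408 against a control mean of 3944, a change of -2.45 (RNA-Seq -1.89), and in LRRK2 KO the changes were 0.12 and -1.03. In bulk tissue fewer cells of a type and less RNA per cell cannot be told apart, and the part of these markers in the motor results was not tested.

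Glial markers were listed as well. Over the comparisons of GS LRRK2 TG, of GS/DA LRRK2 TG and of the KO, in that order, the 7 of 7 oligodendrocyte markers had median footprinting changes of 0.19, 0.06 and -0.04, the 6 of 6 astrocyte markers 0.09, 0.10 and -0.01, and the 5 of 6 microglia markers 0.07, 0.12 and 0.19. Of 8 ependymal and ciliated cell markers 1 was listed per table, *Foxj1* at -0.19 and -0.36 in the transgenic tables and *Ccdc39* at 0.02 in LRRK2 KO. Their part was not tested.

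The partners that link motors to cargo or regulate them, a list of 34 genes, had 26 in each transgenic table and 27 in the LRRK2 KO table. Their median TE differences were -0.01 in GS LRRK2 TG, -0.05 in GS/DA LRRK2 TG and -0.03 in the KO. In GS LRRK2 TG 1 of 26 was TE up (8.01% of all transcripts), *Hook1*, a dynein adaptor (0.39), followed by *Hook3* (0.37) and *Trak2*, a mitochondrial adaptor (0.36), and the lowest were *Fez1* (-0.25), *Rilpl1* (-0.21) and *Hap1* (-0.17). In GS/DA LRRK2 TG 2 of 26 were TE down (7.36%), with *Hook1* (-0.46), *Pafah1b1*, the dynein regulator known as Lis1 (-0.36), and *Ranbp2* (-0.30) lowest and *Nudc* (0.15), *Nde1* (0.13) and *Bicd2* (0.12) highest. In LRRK2 KO 1 of 27 was TE up (6.23%) and 1 TE down (6.02%). The highest were *Hook3* (0.44, TE up), *Arl8b* (0.38) and *Ranbp2* (0.35), and the lowest *Rilpl1* (-0.46, TE down), *Nudc* (-0.33) and *Mapk8ip1* (-0.28). The TE values and calls of these partners rest on group means, and single libraries were not left out for them.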

How the data were processed

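Each deposited value is a signal made by the authors: the mean over the libraries of a group of coding-sequence counts divided by DESeq 1.20 size factors, after alignment to mm9 by TopHat2 (2.0.11) on the Bowtie2 engine (2.2.2), transcripts under 128 reads being discarded. The deposited folding energy is of another (other) kind, in kcal/mol. The authors' own TE columns were not used, nor the ventral midbrain libraries. TE was log2(footprinting mean / RNA-Seq mean) with no pseudocount, z was taken over all transcripts, and no test was made on group means. Reads of single libraries were recovered from means of 2 libraries, a step tested on simulated data. limma 3.58.1 in R 4.3.3 ran on log2(normalized reads + 10) with Benjamini-Hochberg adjustment at 0.05, other values with Python 3.11.15. Genes named were all conventional motors by role, all with a TE call, the 3 highest and 3 lowest per comparison and measure, and the same for TE of adaptors. Genes described beyond that, the matched libraries and the count with *Dynlt1* taken once were chosen after values were seen. Members and lists were chosen with earlier results of these data known. Alternatives were a read minimum, pseudocounts, another z, centring, 1 transcript per symbol, single libraries left out and matched libraries.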

Additional observations from a re-analysis of the deposited data

How the results depend on the processing

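No paired analysis was possible because the recovered libraries carry no replicate number, other than by a match read from the values themselves, whose block is given below as an alternative. Of the counts and medians, 180 kept within their limits and 90 moved. Of the TE differences of called genes, 96 kept their call, 55 lost it and 22 changed sign. The causes were not tested. WT and KO each have 3 footprinting samples, but their means resolved into 2 libraries, as did the control means of the GS/DA LRRK2 TG table in both assays, against 3 labelled samples. Few reads limit *Kif16b*, *Kif19a* and *Kif1c*.

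Leaving out 1 library gave these ranges. In GS LRRK2 TG, TE up was 1 to 4, the median TE difference -0.13 to 0.14, footprints higher 0 to 8 and lower 0 to 1 with a median of 0.018 to 0.074, and RNA-Seq higher 11 to 20 and lower 7 to 15 with a median of -0.10 to 0.28. The TE differences were -0.38 to 2.78 for *Dynlt3*, -0.12 to 1.66 for *Kif21a*, -0.16 to 2.68 for *Kif5b* and -0.24 to 2.30 for *Kif5c*. In GS/DA LRRK2 TG, TE up was 0 to 2, TE down 0 to 4, footprints higher 5 to 11 and lower 0 to 1, and RNA-Seq higher 13 to 19 and lower 4 to 16 with a median of -0.080 to 0.28. The median TE difference was -0.14 to 0.13 and the median footprinting change 0.078 to 0.13. The TE differences were -1.41 to 1.40 for *Dynlt3*, -1.30 to 1.15 for *Kif21a*, -1.25 to 1.01 for *Kif3a*, -2.04 to 1.70 for *Kif5b* and -1.45 to 1.495 for *Kif5c*. In LRRK2 KO, TE up was 0 to 4, TE down 0 to 4, footprints higher 1 to 17 and lower 1 to 11, and RNA-Seq higher 1 to 12 and lower 4 to 10 with a median of -0.14 to 0.022. The median footprinting change was -0.16 to 0.21, and the median TE difference, 0.03 with all libraries, was -0.14 to 0.24. The TE differences were -0.18 to 0.87 for *Dync1i1* and -1.67 to 0.40 for *Kif19a*.

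Group means of at least 2 times the authors' read minimum gave, in GS/DA LRRK2 TG, 2 TE up and 3 higher in footprints, and in LRRK2 KO 0 lower in footprints, 1 higher in RNA-Seq and 3 lower. A pseudocount of 10 gave 2 higher in footprints in GS LRRK2 TG, and 0 higher and 1 lower in LRRK2 KO. A z from the median and scaled MAD gave 4 TE up in GS/DA LRRK2 TG and 4 in LRRK2 KO. Centring on the median change gave 0 higher in footprints in LRRK2 KO.

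Matched libraries were chosen after seeing the data. In GS/DA LRRK2 TG, footprints within matched libraries 1 gave 3 TE up and 2 TE down, and within matched libraries 2 gave 1 TE up. RNA-Seq within matched libraries 1 gave 3 TE up, 0 TE down, 5 higher and 6 lower, and TE differences of 0.39 for *Dynlt3*, 0.23 for *Kif21a*, 0.12 for *Kif3a*, 0.53 for *Kif5b* and 0.39 for *Kif5c*. RNA-Seq within matched libraries 2 gave 1 TE up, 17 higher and 3 lower. In LRRK2 KO, footprints within matched libraries 1 gave 0 TE up, 1 TE down and 5 lower, and within matched libraries 2 gave 1 TE down and 10 higher. RNA-Seq within matched libraries 1 gave 1 TE up, 11 higher and 12 lower, and within matched libraries 2 gave 1 TE up and 1 lower. The TE up call of *Dync1i1* was lost within either matched pair of either assay. The matched-library block in limma gave 2 motors in GS/DA LRRK2 TG footprints.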
